A study of Mus musculus with 2 samples.

Results

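Barcodes carrying RNA of Neurod1 were examined in single-cell libraries of retinal endothelial cells. A barcode is the sequence that marks the RNA of 1 droplet, and a UMI is 1 counted RNA molecule. The members were selected on at least 1 UMI of Neurod1 (chr2:79452521-79456751, minus strand, mm10), so their Neurod1 level is a description and not a result. In the P6 library 98 of 1984 barcodes met this rule (4.94%, exact 95% binomial interval 4.03 to 5.99), and in the P15 library 17 of 2141 (0.794%, 0.463 to 1.27). Together there were 115 members among 4125 barcodes. They were split by their UMIs over Cldn5, Pecam1 and Cdh5, the endothelial junction genes. At P6, 55 members had fewer than 5 such UMIs and 43 had 5 or more, and at P15 the numbers were 5 and 12. Barcodes without a Neurod1 UMI in the same library served as the comparison, 1886 at P6 and 2124 at P15.

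The libraries were made from retinas of wild-type C57BL/6 mice at postnatal day 6 and postnatal day 15. Suspended cells were sorted by FACS for CD31, an endothelial surface protein, and against CD45, a leukocyte surface protein, before 10x Genomics droplet sequencing. The labels give no sex or number of pups, and the aim of the sort was endothelial cells, so neural cells are those the sort did not remove. There was 1 library per age, so no difference between ages could be tested, and age and library cannot be told apart. Intervals in the text are 95% intervals that cover counting error only. The barcodes of the P6 library held 13958124 UMIs and those of the P15 library 11589641. The libraries shared 7 barcode sequences, of which 1 carried Neurod1 at P6, with 1 Neurod1 UMI, 1 endothelial UMI and 2935 UMIs in all.

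Neurod1 and Neurod4 are bHLH transcription factors that act in the retina when progenitors leave the cell cycle and become neurons. Neurod1 is known for its role in photoreceptors and amacrine cells, and Neurod4 for roles in bipolar and amacrine cells. Photoreceptors are specified by Otx2 and Crx, and rods by Nrl and Nr2e3, after which the proteins of the light response such as rod transducin (Gnat1) accumulate. Rods, bipolar cells and Muller glia are late-born retinal classes, and in the mouse their production continues into the first days after birth.

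Rod genes were among the genes higher in the members with few endothelial UMIs, and the upstream sequence of 3 of them is shown. TAATCC is the core motif bound by Crx. It was searched on both strands, in windows of 250 bases before to 50 bases after each gene's start in the RefSeq table for GRCm38.p6. It was found in 2320 of 32851 windows (7.06%). Among the 12 rod genes, 7 had a window and 3 of these held the motif (42.9%). Among the 15 photoreceptor genes, 11 had a window and 5 held it (45.5%). Among the 20 endothelial genes outside the split, 14 had a window and 2 held it (14.3%). The 7.06% counts windows, while the shares of the lists count genes with a match in any of their windows. A gene with several windows, such as Otx2 or Unc119, has more chances of a match, so these shares are not like for like. A match is a description of the letters and not a bound site. The 3 rod genes with a match were Sag, the arrestin of rods, Gngt1, a subunit of rod transducin, and Cnga1, a subunit of the rod cation channel. Capitals mark TAATCC or, where the match is on the other strand, its reverse complement GGATTA. The windows read 5′ to 3′ on the strand of the gene.
Sag (chr1:87803430-87803729, plus strand): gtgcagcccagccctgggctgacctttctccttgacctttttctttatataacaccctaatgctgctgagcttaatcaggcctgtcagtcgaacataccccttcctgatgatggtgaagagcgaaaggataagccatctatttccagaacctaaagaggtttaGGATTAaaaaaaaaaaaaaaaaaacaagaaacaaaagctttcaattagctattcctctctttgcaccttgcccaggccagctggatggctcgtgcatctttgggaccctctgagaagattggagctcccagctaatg
Gngt1 (chr6:3993758-3994057, plus strand): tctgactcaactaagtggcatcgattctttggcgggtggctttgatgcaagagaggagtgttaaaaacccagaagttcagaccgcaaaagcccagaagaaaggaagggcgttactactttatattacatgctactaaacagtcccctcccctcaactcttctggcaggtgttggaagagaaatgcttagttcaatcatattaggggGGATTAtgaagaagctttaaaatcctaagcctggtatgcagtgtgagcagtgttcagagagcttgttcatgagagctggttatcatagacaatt
Cnga1 (chr5:72642703-72643002, minus strand): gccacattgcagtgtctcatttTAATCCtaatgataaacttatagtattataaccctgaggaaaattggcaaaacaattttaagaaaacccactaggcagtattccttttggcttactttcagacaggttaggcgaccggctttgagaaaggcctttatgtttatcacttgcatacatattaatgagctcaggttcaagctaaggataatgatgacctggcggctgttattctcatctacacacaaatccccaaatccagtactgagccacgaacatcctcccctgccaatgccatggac

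Most members with few endothelial UMIs held several Neurod1 UMIs, and most of those with endothelial RNA held a single one, though some barcodes held much of both. The 55 P6 members with few endothelial UMIs held 515 Neurod1 UMIs, with a median of 7 per barcode and a range of 1 to 37, and 7 of them had just 1. Their depth was 1711 to 20251 UMIs with a median of 4211, against a median of 5588.5 in the P6 barcodes without Neurod1 that had 5 or more endothelial UMIs. They had a median of 2142 detected genes. The 43 P6 members with 5 or more endothelial UMIs held 318 Neurod1 UMIs, with just 1 in 31 of them and over 1 in 12. No value lies between 0 and 1 Neurod1 UMI, so the selection turned on single molecules in 31 of these barcodes and in 7 of the others.

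The limit of 5 endothelial UMIs cut through a group of deep barcodes. Just inside it, 7 P6 members had 4 endothelial UMIs with a median depth of 13227 UMIs, and just outside it, 3 had 5 with a median depth of 24729 UMIs. No P6 member had 11 to 15 endothelial UMIs. The 7 P6 members with 5 to 10 endothelial UMIs had 10229 to 47451 UMIs and held 255 of the 318 Neurod1 UMIs. Their rod list stood at 10130 CPM (9689 to 10586), where CPM is summed UMIs of the list per 1000000 UMIs of the group. Their endothelial list outside the split stood at 1814 CPM (1630 to 2012). In the 36 P6 members with over 10 endothelial UMIs these values were 385 CPM (321 to 459) and 11812 CPM (11441 to 12192). The boundary at 10 was chosen after the values were seen. By the share of endothelial UMIs in each barcode, with a limit of 0.1%, the group with little endothelial RNA had 62 members at P6 and 6 at P15.

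Among those 36 barcodes, 34 had 1 or 2 Neurod1 UMIs. They held 15 rod UMIs (51.3 CPM, 28.7 to 84.6) and 35 photoreceptor UMIs (120 CPM, 83.4 to 167), and their endothelial list outside the split stood at 12416 CPM (12015 to 12827). A single barcode of 2276 UMIs held 11 of the photoreceptor and 6 of the rod UMIs. The P6 barcodes without Neurod1 that had 5 or more endothelial UMIs stood at 31.6 CPM for the rod list, 78.5 CPM for the photoreceptor list and 13554 CPM for that endothelial list. Thinned to 1000 UMIs each, 13.9% of the 36 (4.67 to 29.5) held a rod UMI, against 3.07% of the endothelial barcodes without Neurod1. The unthinned shares were 30.6% and 17.5%, at median depths of 7332 and 5588.5 UMIs. The shares of the 36 include 2 barcodes with over 2 Neurod1 UMIs, and no share is given for the 34 alone. Their endothelial level was near that of endothelial barcodes, so for these 34 the name of retinal neural cells goes against the data. Of the 36, 2 had over 2 Neurod1 UMIs, and they held 110 rod UMIs beside 99 UMIs of the 3 endothelial split genes.

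**Figure D1:**
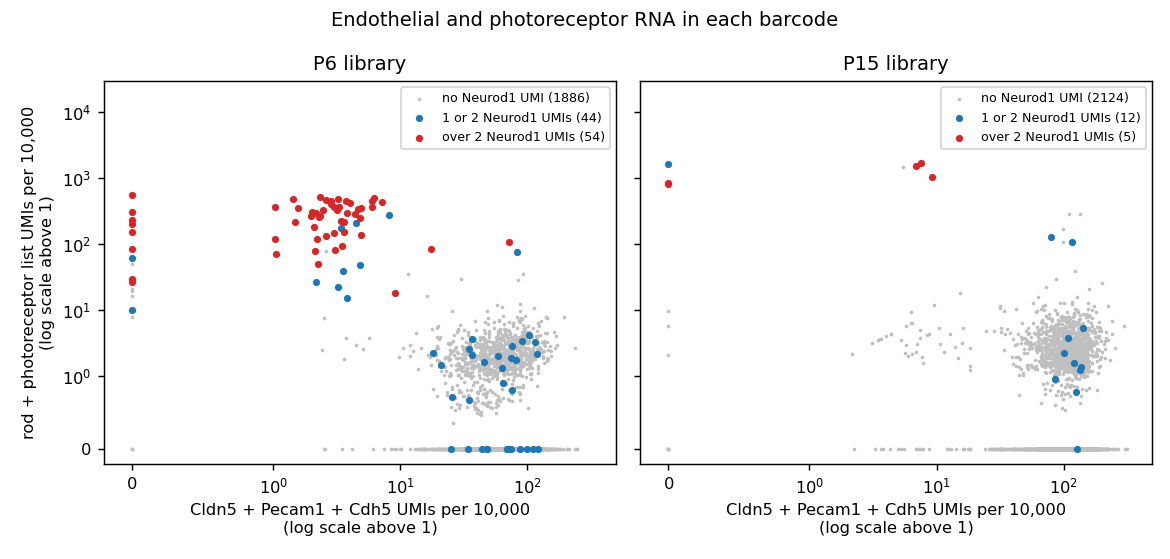
Endothelial UMIs (Cldn5, Pecam1 and Cdh5) against rod and photoreceptor list UMIs, both per 10000 UMIs of the barcode, with axes linear near 0 and logarithmic above 1. Each point is 1 barcode of the P6 library (left) or the P15 library (right), coloured by its Neurod1 UMIs, and the barcodes with over 2 Neurod1 UMIs, 54 at P6 and 5 at P15, lie mostly at upper left while most of those with 1 or 2 lie among the barcodes without Neurod1.

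In the 55 P6 members with few endothelial UMIs, genes of neurons and photoreceptors were higher than in the 1886 barcodes without Neurod1, and endothelial genes were lower. There were 5607 genes whose mean CPM over both groups was worth at least 10 UMIs in the smaller group. Of these, 684 were at least 4-fold higher in the members (12.2%) and 578 at least 4-fold lower (10.3%), and the median ratio over all 5607 was 1.28. A gene rare outside the members passes that minimum only where it is high in them, so genes of the lists were counted without it. Each list gene with a row was called higher or lower where the counting interval of its ratio lay wholly above or below 1, a rule set after the values were seen. Of all 22686 genes with a row, 4641 were higher by it (20.5%) and 2116 lower (9.33%), and the counts below are to be read against these shares. With 1 library, they are a size of difference and not a test. Neurod4 (chr10:130268152-130280240, minus strand), which the selection did not use, had 140 UMIs in 37 of the 55 barcodes, from 0 to 16 with a median of 1. Its level was 407 CPM (343 to 481) against 1.60 CPM, a ratio of 254 (160 to 423). Of the 21 Neurod4 UMIs outside the members, 12 lay in 5 of the 30 P6 barcodes with neither Neurod1 nor 5 endothelial UMIs. The ratio was 588 against barcodes with 5 or more endothelial UMIs alone, and 112 as a mean of CPM per barcode. Thinned to 1000 UMIs, 25.5% of the members held Neurod4 (14.7 to 39.0), against 0.162% of the endothelial barcodes without Neurod1, and unthinned 67.3% against 0.485%. At P15 Neurod4 had no row in the table and has no value there.

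The fate factors of the bHLH family without Neurod1 had 206 UMIs in the members, 599 CPM against 2.37 CPM. Of the 9 other genes of the list with a row, Neurod4 and Bhlhe22 among them, 7 were higher and none lower. Of the 13 neurogenic Notch and cell cycle exit genes, 9 were higher and 2 lower. Sox4, a factor of newborn neurons, stood at 1109 CPM against 127 CPM (ratio 8.72, 7.78 to 9.75). Btg2, an antiproliferative gene of cells that leave the cycle, stood at 821 CPM against 64.8 CPM (12.7, 11.03 to 14.5). Hes6, an inhibitor of Hes1 in neurogenesis, had 172 UMIs (12.8, 10.7 to 15.3), and Gadd45g, a growth arrest gene, had 93 (17.2, 13.3 to 22.1). Dll3, a Notch ligand of newborn neurons, had 22 UMIs in 12 barcodes and 1 UMI in all barcodes without Neurod1 (838, 135 to 34589). Hes1, a Notch target that holds cells as progenitors, was among the lower genes, with 17 UMIs at a ratio of 0.133 (0.0773 to 0.213). Its level was 49.5 CPM in the members and 372 CPM in the P6 endothelial barcodes without Neurod1. The comparison was thus with endothelial RNA and not with retinal progenitors.

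Most neuronal structure and synapse genes were higher. Of 15 pan-neuronal genes, 12 were higher and none lower, with a median level over the 15 of 113 CPM against 0.917 CPM. Of 12 synaptic vesicle and release genes, 10 were higher and 1 lower, with a median level of 207 CPM against 0.840 CPM. Map1b, a microtubule protein of growing axons, had 923 UMIs in 51 barcodes, 2686 CPM against 145 CPM (18.6, 17.2 to 20.1). Snap25, a protein of synaptic vesicle fusion, had 183 UMIs in 45 barcodes (290, 189 to 465). After thinning to 1000 UMIs, 38.2% of the members held Snap25 (25.4 to 52.3), against 0.162% of the endothelial barcodes without Neurod1, and unthinned 81.8% against 0.970%. Syp, a synaptic vesicle membrane protein, had 169 UMIs against 12 (537, 299 to 1059). Cplx3, a complexin of retinal synapses, had 153 UMIs in 41 barcodes (343, 207 to 604). Slc17a7, the vesicular glutamate transporter that photoreceptors and bipolar cells use, had 44 UMIs in 23 barcodes and none in the barcodes without Neurod1. With 3 counts in place of that 0 its ratio was 559, a value that leaves out the counting error of the 44 UMIs. Dcx and Elavl4, genes of newborn and ganglion or amacrine neurons, had no UMI in the members, and 3 counts over the group allow up to 8.73 CPM.

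Photoreceptor genes, shared by rods and cones, and rod genes were higher with few exceptions. Of 15 photoreceptor genes 14 were higher, of 12 rod genes 11 were higher, and none of either list was lower. The median level was 521 CPM against 2.67 CPM over the photoreceptor genes and 924 CPM against 2.75 CPM over the rod genes. The photoreceptor list summed to 13196 CPM against 82.4 CPM (160, 150 to 171), and the rod list to 11656 CPM against 32.9 CPM (354, 321 to 392). Otx2, the early photoreceptor and bipolar factor, had 196 UMIs in 42 of 55 barcodes (393, 245 to 667). Crx, the factor that follows it, had 179 UMIs in 44 barcodes (296, 191 to 480). The rod factors were as broadly present. Nrl had 425 UMIs in 47 barcodes (415, 299 to 592) and Nr2e3 had 680 UMIs in 46 (551, 410 to 757).

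RNA for proteins of the rod light response was detected as well. Pdc, phosducin, a regulator of transducin, had 1206 UMIs, from 0 to 124 per barcode with a median of 16 (505, 408 to 632). Sag, whose upstream window is printed above, had 1063 UMIs in 46 barcodes (365, 300 to 448), and Gngt1 had 520 in 45 (472, 344 to 662). Rom1, a protein of outer segment discs, had 973 UMIs in 50 barcodes (242, 204 to 289), and Prph2, its partner in the discs, had 386. Gnat1, the alpha subunit of rod transducin, had just 5 UMIs. Thinned to 1000 UMIs, a rod list UMI was found in 87.3% of the members (75.5 to 94.7) and in 3.07% of the endothelial barcodes without Neurod1, against 90.9% and 17.5% unthinned. For Rom1 alone the thinned shares were 85.5% and 1.40%, and the unthinned shares 90.9% and 7.65%.

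Of the 9 cone genes with a row, 7 were higher and none lower, though most of their UMIs were of 1 gene. This was Gngt2, a subunit of cone transducin, with 472 of the 539 UMIs of the list, in 47 barcodes (20.7, 18.5 to 23.2). Its level in the barcodes without Neurod1 was 66.2 CPM, so its RNA was also found outside the members. Cngb3, a subunit of the cone channel, had 16 UMIs, and Pde6c, the cone phosphodiesterase, had no UMI in the members.

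Genes of bipolar and amacrine cells were present in fewer members. Of 14 bipolar genes 12 were higher and none lower, with a median level of 24.7 CPM against 0.153 CPM. Isl1, a factor of bipolar, amacrine and ganglion cells, had 94 UMIs in 18 barcodes (448, 218 to 1067). Prkca, the rod bipolar kinase, had 22 UMIs in 15 barcodes. Scgn, secretagogin, a calcium-binding protein of cone bipolar cells, had 20 UMIs in 7 barcodes and 1 UMI outside (762, 122 to 31579). The bipolar list ratio of 73.3 (59.7 to 90.3) fell to 32.4 with a limit of 3 endothelial UMIs, a limit that also removes deep barcodes. Of 10 amacrine genes with a row, 8 were higher and none lower, and 2 had no UMI. Pax6, which amacrine cells and progenitors express, had 62 UMIs in 20 barcodes (60.6, 39.9 to 92.9), and Meis2, an amacrine factor, had 62 in 31 (8.62, 6.43 to 11.4). Gad1, a GABA-synthesizing enzyme, and Slc6a9, the glycine transporter, had no UMI in the members, and the bound of 3 counts given for Dcx applies. Gad2, the other GABA-synthesizing enzyme of the list, had 6 UMIs in the members (17.5 CPM).

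Among genes counted with UMIs in both groups, the largest ratios belonged to genes that the lists hold only in part. A gene with no UMI outside the members was ranked by a bound, as given for Slc17a7, so its place is not known. Slc17a7, with 44 UMIs against none, stood at 559, below Peli3 with 20 against 1 (762). Ppp2r2b, a phosphatase subunit of neurons, had 115 UMIs in 42 of 55 barcodes and 2 UMIs in the 1886 others (2190, 593 to 18304). Amer2, a membrane-bound regulator of Wnt signalling, had 210 UMIs in 43 barcodes (800, 426 to 1693). Slc1a2, a glutamate transporter, had 82 UMIs in 27 barcodes (781, 294 to 2934). Cplx4, a photoreceptor complexin, had 41 UMIs against 1 (1562, 265 to 63177). The rest of the 15 genes with the largest ratios were Elovl2, Gm11546, Tfap2a, Ppef2, Bhlhe22, Dll3, Erc2, Kcnma1, Acsl6, Peli3 and Scgn, with 20 to 51 UMIs in the members and 1 or 2 UMIs outside, so the order among them is set by single molecules.

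Endothelial RNA was low in these members, including genes the split did not use. All 20 endothelial genes outside the split were lower, and the list stood at 1435 CPM against 13478 CPM (0.106, 0.0972 to 0.116). Bsg, basigin, which photoreceptors also express, had 268 UMIs (0.238, 0.210 to 0.268). Slc2a1, the glucose carrier of barrier endothelium that photoreceptors also use, had 63 UMIs (0.203, 0.156 to 0.260). Ramp2, an adrenomedullin receptor subunit, had 26 (0.0591, 0.0386 to 0.0867). Ly6a, an endothelial surface protein, had none. A gene with no UMI in the members was ranked by the bound given for Dcx, so its place among the lowest ratios is not known. Of the genes counted with UMIs in both groups, Igfbp7, a secreted protein of angiogenic vessels, had the lowest ratio. It had 21 UMIs against 73280 (0.0109, 0.00676 to 0.0167). Hspg2, perlecan of the basement membrane, and Foxq1, Slc40a1 and Slc39a8 followed, with 1 UMI each. Of the split genes, Cldn5 stood at 227 CPM against 4973 CPM, a level that the selection capped.

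Many markers of other cells of the retina and blood had no UMI, while Cd63, Vtn and Aldoc were higher. In the members, all microglia and leukocyte genes with a row had no UMI. That list was also low in the barcodes without Neurod1, at 9.17 CPM, and the interval of its ratio (0 to 1.19) included 1. Of the 11 pericyte and smooth muscle genes, Pdgfrb, Cspg4, Kcnj8, Abcc9, Acta2, Tagln and Des had none, Rgs5 and Notch3 had 1 UMI each, and Vtn, vitronectin, had 9 (13.7, 5.63 to 30.4). The median level of the 11 in the barcodes without Neurod1 was just 1.91 CPM. By the rule of the interval 8 of the 11 were neither higher nor lower. The list as a whole was higher (4.50, 3.69 to 5.44), through Cd63. Cd63, a tetraspanin of late endosomes that the list holds and that many cell types express, had 109 of the 120 UMIs of that list, in 43 of 55 barcodes, a ratio of 15.3 (12.1 to 19.1), and without it the list ratio was 0.563 (0.280 to 1.01). Of 5 erythroid genes 4 were lower (list ratio 0.0458, 0.0250 to 0.0769), and Hbb-bt and Hba-a1 had no UMI. Gfap, the astrocyte filament, and Fgfr3, also of the astrocyte list, had none. Of the 5 astrocyte genes with a row just Aldoc, a glycolytic enzyme, was higher, with 22 UMIs (105, 44.9 to 272). Horizontal and ganglion cell lists had 57 and 17 UMIs, at ratios of 0.619 (0.468 to 0.804) and 0.257 (0.150 to 0.413), but genes also found in the endothelial barcodes set these values. Sept4, a septin, had 46 of the 57 horizontal UMIs and 3503 of the 3507 in the barcodes without Neurod1, and without it the ratio was 105 (31.0 to 451) on 11 UMIs. Rbpms, an RNA-binding protein, had 2164 of the 2518 ganglion UMIs in the barcodes without Neurod1. Without it the ganglion ratio was 1.61 (0.894 to 2.70), and without Sncg, gamma-synuclein, as well it was 8.63 (4.20 to 16.3) on 12 UMIs. These alternatives were chosen after the values were seen. Of the 4 pigment epithelium genes with a row, Tyr, Pmel and Ttr had no UMI, and Dct, an enzyme of melanin synthesis, had 3 UMIs against none in the barcodes without Neurod1, and the list stood at 5.71 (1.09 to 19.3).

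Progenitor and Muller glia genes split among themselves. Of 13 with a row, 10 were higher and 2 lower, and the list as a whole stood at 2377 CPM against 2084 CPM (1.14, 1.06 to 1.22). Dbi, an acyl-CoA binding protein with most of the UMIs, had 373 (2.74, 2.46 to 3.04). Crym, a thyroid hormone binding protein, had 101 (68.7, 49.1 to 97.0). Glul, the glutamine synthetase of Muller glia, had 70 (0.689, 0.536 to 0.873). Vim, vimentin, was one of the lower genes, with 61 UMIs (0.140, 0.107 to 0.180). Sfrp2 had none. The list ratio was 0.898 among barcodes of 200 to 3500 genes and at most 5% mitochondrial UMIs, so the direction of the whole list changed with those limits, which were applied together.

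**Figure D2:**
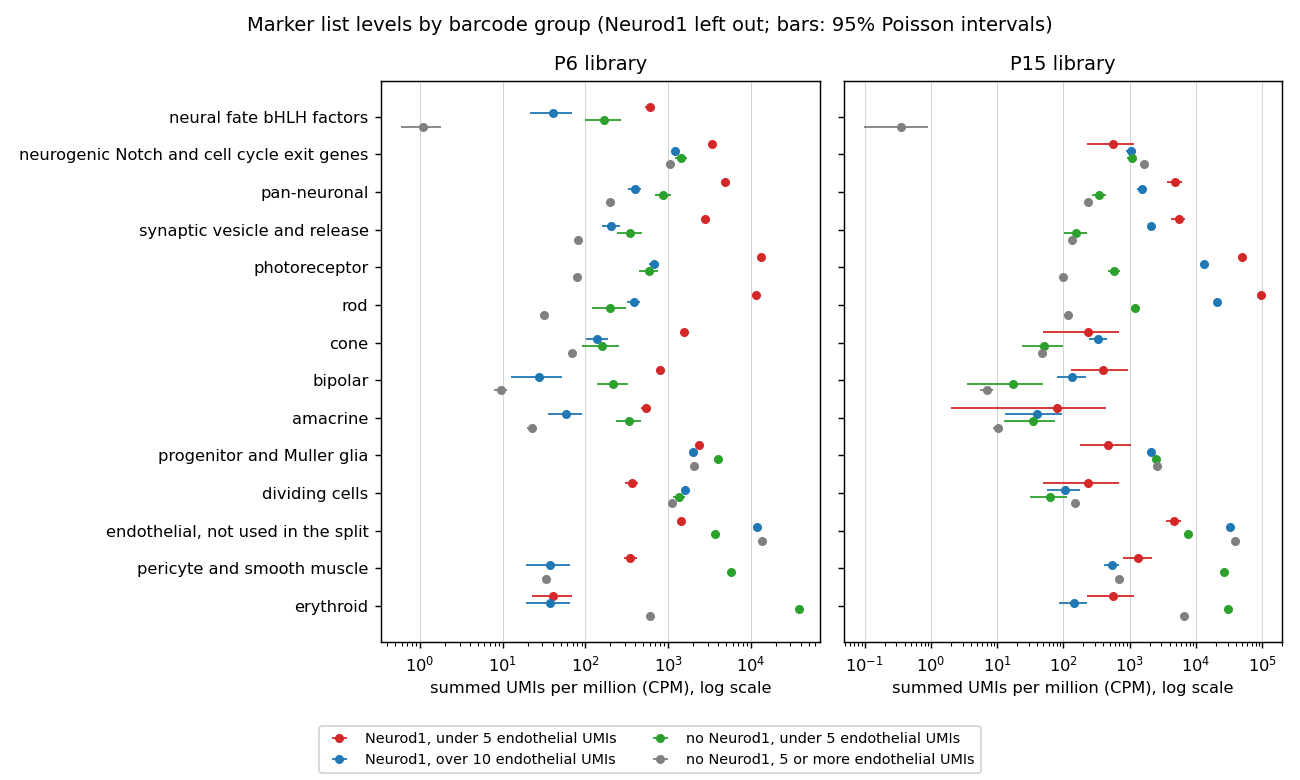
Summed level of each marker list in CPM (log axis) by group of barcodes, with Neurod1 left out and 95% Poisson intervals as bars, for P6 (left) and P15 (right). At P6 the Neurod1 barcodes with under 5 endothelial UMIs stand at 11656 CPM for the rod list and 1435 CPM for the endothelial list outside the split, while Neurod1 barcodes with over 10 endothelial UMIs stand at 385 CPM and 11812 CPM.

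The P6 members with few endothelial UMIs were not alike in their neural RNA. Counted over the genes of each list, 47 of the 55 barcodes held UMIs of at least 3 rod genes, 51 of at least 3 photoreceptor genes and 54 of at least 3 pan-neuronal genes. At least 3 bipolar genes were found in 13 barcodes, of which 12 also held at least 3 rod genes. At least 3 amacrine genes were found in 9 barcodes, of which 7 also held at least 3 rod genes. Deep barcodes have more chances to hold a gene, and whether such barcodes were 1 cell was not tested. Of the UMIs over the photoreceptor, rod, cone, bipolar, amacrine, horizontal and ganglion lists, rod genes made up 41.7% (40.7 to 42.7), photoreceptor genes 47.2%, bipolar genes 2.88% and amacrine genes 1.92%. In the endothelial barcodes without Neurod1 the rod genes made up 4.73% of the same sum, most of which was horizontal and ganglion list RNA, and 7.42% when the gene with most UMIs in the members was left out of each list.

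Rod UMIs were under 5 in 10 of the 55 barcodes, a limit set after the values were seen. These barcodes had a median depth of 2902.5 UMIs, and the other 45 of 4498 UMIs. Neurod4 stood at 906 CPM (592 to 1327) in the 10, with UMIs in 9 of them, and at 362 CPM (299 to 435) in the 45. Isl1 stood at 592 CPM (345 to 948) against 244 CPM (193 to 306), and Gadd45g at 662 CPM (399 to 1034) against 235 CPM (184 to 295). Dll3 stood at 279 CPM (120 to 549) against 44.4 CPM (24.3 to 74.6). Crx went the other way, with 139 CPM (38.0 to 357) against 556 CPM (476 to 644), while the intervals of Otx2 overlapped, at 801 CPM (508 to 1203) and 549 CPM (470 to 637). The bipolar list stood at 1498 CPM (1084 to 2018) against 743 CPM (651 to 844). Some of these levels rested on few barcodes. The 8 Dll3 UMIs of the 10 lay in 2 barcodes, and 1 barcode held 9 of 17 Isl1 UMIs, 1 held 9 of 19 Gadd45g UMIs and 1 held 18 of 43 bipolar UMIs. Without the barcode with most UMIs of the gene or list, the 10 stood at 315 CPM for Isl1 (136 to 621), 387 CPM for Gadd45g (185 to 711), 166 CPM for Dll3 (45.2 to 425), 985 CPM for the bipolar list (637 to 1454) and 41.5 CPM for Crx (1.05 to 231). Of these, Crx alone had an interval that did not overlap that of the 45. Neurod4 still stood at 829 CPM (507 to 1281). These intervals take no account of differences between cells.

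Amacrine RNA was held by few of them. Tfap2a, a factor of amacrine cells, had 25 UMIs in 4 barcodes, and 23 of these UMIs were in 2 of the 10 barcodes low in rod UMIs. At P6 the dividing cell list was also uneven. It stood at 361 CPM against 1106 CPM in the barcodes without Neurod1 (0.326, 0.271 to 0.389), with 69 of its 124 UMIs in 1 barcode of 15501 UMIs. Without that barcode the list stood at 168 CPM (0.152, 0.114 to 0.197). All 10 dividing cell genes were lower by the rule of the interval. Top2a, a topoisomerase of dividing cells, had 22 UMIs in 6 barcodes, and Ube2c, a mitotic ubiquitin enzyme, had 17 in 6.

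**Figure D3:**
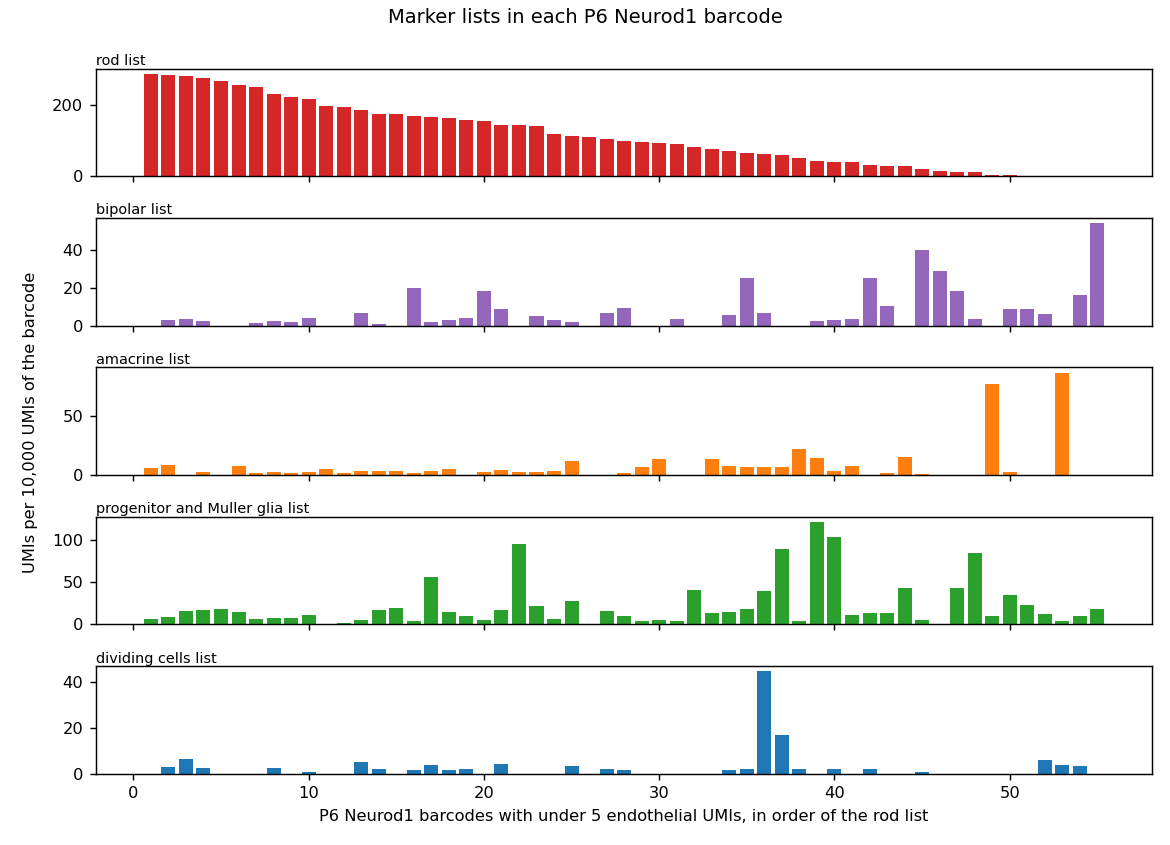
UMIs of 5 lists per 10000 UMIs in each of the 55 P6 Neurod1 barcodes with under 5 endothelial UMIs, 1 bar per barcode, ordered from the highest to the lowest rod level, each panel with its own linear axis from 0. Amacrine RNA is high in 2 barcodes and dividing cell RNA in 1, and both of the amacrine barcodes lie among those with under 5 rod UMIs.

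The study named Neurod1 among the genes by which contaminating cells were left out, beside Hbb-bt, Cd63 and limits on mitochondrial share and on low and high counts. How much RNA of a gene excluded a barcode is not given in the sources used here. The criteria were applied here as any UMI of a gene, under 200 or over 3500 genes, and over 5% mitochondrial UMIs. So read, they left 1424 P6 and 1644 P15 barcodes, fewer than the study kept, so its own cuts differed and which of them removed which barcode is not known. Of the 55 P6 members with few endothelial UMIs, 44 met at least 1 criterion other than Neurod1 by this reading. A Cd63 UMI was found in 43 and over 3500 genes in 14, and 11 met none (95% interval of the share 10.4% to 33.0%). Of the P6 barcodes without Neurod1, 24.5% met at least 1 criterion, 8.80% had a Cd63 UMI and 15.8% had over 3500 genes. The members' share with over 3500 genes was 25.5% (14.7 to 39.0), an interval that included 15.8%. Of the 43 members with 5 or more endothelial UMIs, 24 (55.8%) met none of the other criteria, against 75.5% of the P6 barcodes without Neurod1. Much photoreceptor RNA without a Neurod1 UMI was found in few barcodes, and a little of it in more. Of 1886 P6 barcodes without Neurod1, 1 had at least 20 photoreceptor and rod UMIs, a limit set after the values were seen, against 46 of the 55 members. UMIs of at least 3 photoreceptor genes were found in 35 of the 1856 P6 endothelial barcodes without Neurod1 and in 3 of the 30 with few endothelial UMIs. At P15, 7 of 2124 had at least 20 photoreceptor and rod UMIs, and 3 of these met none of the other criteria.

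The 14 P6 members with over 3500 genes had a median depth of 13190.5 UMIs. Their rod list stood at 10313 CPM (9864 to 10777), and at 13367 CPM (12791 to 13963) in the other 41. Their bipolar list stood at 1039 CPM (900 to 1193) against 509 CPM (402 to 637), and their progenitor and Muller glia list at 2795 CPM (2564 to 3042) against 1845 CPM (1635 to 2075). Xist, expressed from the inactive X of females, and the Y-linked genes Ddx3y, Eif2s3y, Kdm5d and Uty were both found in 3 of the 55 barcodes (5.45%, 1.14 to 15.1), and both kinds in 19 of the 1856 endothelial barcodes without Neurod1 (1.02%, 0.617 to 1.59). Thinned to 1000 UMIs, 0 of 55 and 0 of 1856 held both, which for the members allows a share of up to 5.45% by 3 counts and up to 6.49% by the exact interval. No doublet caller was run, and the part of doublets or free RNA in these values was not tested.

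At P15 the members with few endothelial UMIs were 5 barcodes with 12581 UMIs in all, so the genes that could be counted were few. Their depths were 1748, 1156, 1262, 2656 and 5759 UMIs, and their Neurod1 UMIs were 1, 3, 3, 5 and 10. In the same order they held 180, 60, 64, 298 and 600 rod list UMIs. All 5 were rich in rod RNA. Of 163 genes counted, 42 were at least 4-fold higher than in the 2124 P15 barcodes without Neurod1 (25.8%) and 30 lower (18.4%), with a median ratio of 0.664. Over every gene with a row, by the rule of the interval, 814 of 21735 were higher (3.75%) and 275 lower (1.27%). All 12 rod genes and 13 of 15 photoreceptor genes were higher, and none lower. The rod list stood at 95541 CPM against 135 CPM (705, 654 to 761), and the photoreceptor list at 49599 CPM against 106 CPM (467, 424 to 515). The endothelial list outside the split stood at 4610 CPM against 38488 CPM (0.120, 0.0910 to 0.155), with 14 of its 20 genes lower and none higher.

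Among the 12 P15 members with 5 or more endothelial UMIs, 11 had 1 Neurod1 UMI and 8 had at most 3 photoreceptor and rod UMIs. Of the 3 with at least 20, 1 was a barcode of 38972 UMIs with 78 Neurod1 UMIs, 2535 rod UMIs, 1574 photoreceptor UMIs and 36 endothelial UMIs, 0.0924% of its UMIs. By the share of endothelial UMIs it would join the 5.

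Set beside the 55 P6 members, the 5 P15 members held more RNA of the rod light response. Over the 157 genes counted, 22 were at least 4-fold higher at P15 (14.0%) and 8 at least 4-fold lower (5.10%), with a median ratio of 0.787. By the rule of the interval, over every gene with a row in both tables, 264 of 19812 were higher at P15 (1.33%) and 123 lower (0.621%). Of the 12 rod genes 10 were higher at P15, of the 15 photoreceptor genes 10 were higher, and none of either was lower. Gnat1 had 5 UMIs at P6 and 65 at P15, or 14.5 CPM and 5167 CPM (355, 145 to 1130). The ratio was 303 without the deepest barcode of each library, and 293 with barcodes chosen by a share of endothelial UMIs under 0.1%. Rcvrn, recoverin, a calcium sensor of photoreceptors, stood at 19.95-fold (14.9 to 26.7), Cnga1 at 12.8-fold (8.35 to 19.2), Gngt1 at 9.72-fold (8.17 to 11.5) and Sag at 4.91-fold (4.19 to 5.73).

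The rod factors differed less. Nrl stood at 1237 CPM at P6 and 2623 CPM at P15 (2.12, 1.44 to 3.03), and Nr2e3 at 1979 CPM and 2385 CPM (1.21, 0.807 to 1.74), an interval that includes 1. Drd4, a dopamine receptor of photoreceptors, and Guca1b, a guanylate cyclase activator, were named after their values were seen. Each had 2 UMIs at P6, and they had 27 and 25 UMIs at P15 (369, 92.7 to 3200, and 341, 85.1 to 2975). Among the lower genes, also named after their values were seen, Tmsb10, a thymosin of growing neurons, had 990 UMIs at P6 and 2 at P15 (0.0552, 0.00667 to 0.200). Tmsb10 is not particular to neurons, and it stood at 8660 CPM in the P15 barcodes without Neurod1. Stmn1, a tubulin-binding protein of immature neurons, had 657 UMIs at P6 and none at P15. Rorb, a nuclear receptor that acts before Nrl in rods, had 541 and 4 (0.202, 0.0548 to 0.520).

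Some rod and photoreceptor genes also differed between the libraries, in either direction, in barcodes without Neurod1 that had 5 or more endothelial UMIs. Of these barcodes, 8 of 1856 at P6 and 52 of 2064 at P15 held UMIs of at least 3 rod genes. By the rule of the interval, 13 of the 27 genes of both lists were higher at P15 in endothelial barcodes without Neurod1 and 4 were lower, against 5522 (27.9%) and 3296 (16.6%) of all 19812 genes. In these barcodes, Rcvrn stood at 1.23 CPM at P6 and 11.2 CPM at P15 (9.07, 5.38 to 16.4), and Gnat1 at 2.001 CPM and 9.40 CPM (4.70, 3.04 to 7.52). Nr2e3 went the other way (0.506, 0.274 to 0.900), and the intervals of Nrl (1.18, 0.741 to 1.89) and Crx (0.425, 0.151 to 1.05) included 1. Rod genes made up 13.6% of the neural list UMIs there at P15 and 4.73% at P6, or 27.01% and 7.42% without the gene with most UMIs of each list.

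**Figure D4:**
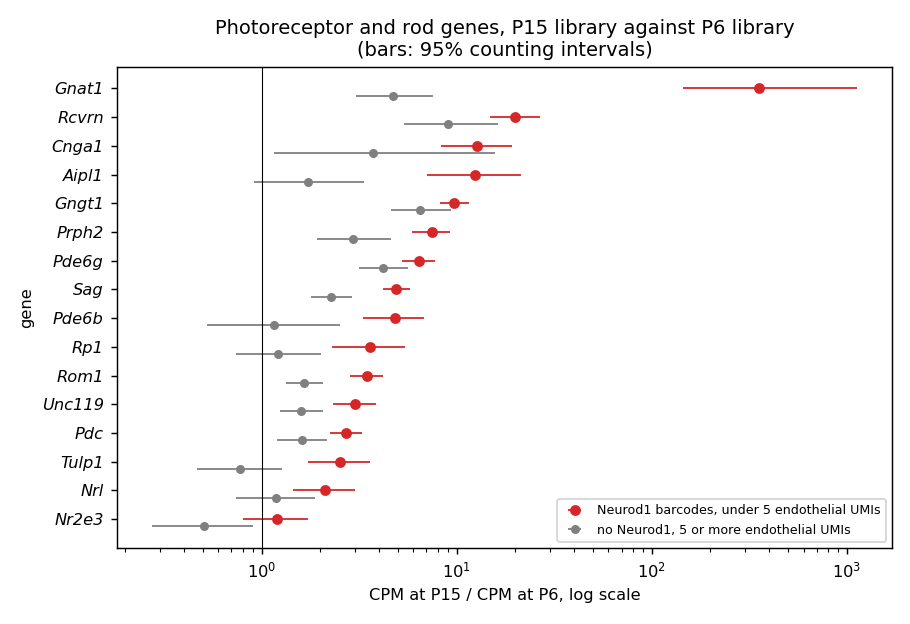
Ratio of CPM at P15 to CPM at P6 (log axis) for 16 photoreceptor and rod genes, in Neurod1 barcodes with under 5 endothelial UMIs (red, 55 and 5 barcodes) and in endothelial barcodes without Neurod1 (grey), with 95% counting intervals as bars and a line at a ratio of 1. Among the genes plotted, in the Neurod1 barcodes Gnat1 (355) and Rcvrn (19.95) stand highest and Nr2e3 (1.21) lowest.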

How the data were processed

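The deposited tables hold UMI counts per gene and barcode for 1 P6 and 1 P15 library, written by the authors without normalization. The submitters' processing notes name mm10 and Seurat 3.0, and the aligner and annotation are not given in the sources used here. A gene without a row in a table has no value there, which is not a count of 0. Gene positions were taken from GENCODE M21 and windows from RefSeq. UMIs were summed per group of barcodes and divided by all UMIs of the group (CPM). Rows without a gene symbol held 0.0145% of P6 UMIs and 0.0146% of P15 UMIs. Counts carry exact Poisson intervals, shares Clopper-Pearson intervals and ratios intervals conditional on their sum, at 95% (Python 3.11.15, scipy 1.17.1). The ratio intervals were tested on simulated Poisson counts without differences between barcodes, so that test does not cover such differences. A count of 0 was bounded by 3 counts over the group, and a ratio with such a count was ranked by that bound. Genes were counted where their mean CPM was worth at least 10 UMIs in the smaller group, and called at 4-fold. List genes were called over every gene with a row, where the interval of the ratio excluded 1. No barcode was filtered out, and no test was run with 1 library per age. Members and lists were chosen with earlier results of these data known. Genes named were Neurod1, Neurod4, up to 4 genes per list with most UMIs in the P6 members and genes of a list without a UMI, the 15 largest and 5 smallest ratios, Xist and 4 Y-linked genes. Other genes, and the limits given as such, were chosen after values were seen. Some genes of the lists are not reported here by name, though they count in sums over the lists.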

Additional observations from a re-analysis of the deposited data

Results flagged for a closer look

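Ratios of 2 marker lists went opposite ways in the libraries, in the Neurod1 barcodes with few endothelial UMIs against barcodes without Neurod1. The list of neurogenic Notch and cell cycle exit genes stood at a ratio of 3.14 at P6 (2.95 to 3.33) and 0.335 at P15 (0.135 to 0.691), where it rested on 7 UMIs. By the rule of the interval, 10 of its 12 genes with a row at P15 were neither higher nor lower, 1 was higher and 1 lower. The barcodes without Neurod1 differed as well, at 1069 CPM for this list at P6 and 1659 CPM at P15. The progenitor and Muller glia list stood at 1.14 at P6 (1.06 to 1.22) and 0.183 at P15 (0.0671 to 0.398), where it rested on 6 UMIs. Of its 13 genes with a row at P15, 11 were neither higher nor lower and 2 were lower. With 200 to 3500 genes and at most 5% mitochondrial UMIs the P6 ratio was 0.898, on the same side of 1 as at P15. The differences between the libraries were not tested, since there was 1 library per age.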

How the results depend on the processing

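No paired analysis was possible because each age had 1 library and no test was run. Of 244 ratios of lists and of Neurod4 under alternatives with UMIs in both groups, 243 kept the direction of the value reported. Lists without a member UMI were left out, as were alternatives that removed the last one, such as the single ganglion UMI at P15. The exception was the progenitor and Muller glia ratio at P6, which became 0.898 with 200 to 3500 genes and at most 5% mitochondrial UMIs. Chosen after seeing the data, leaving genes out turned the P6 ratios of the horizontal list to 105 (without Sept4), of the ganglion list to 1.61 (without Rbpms) and 8.63 (without Rbpms and Sncg), and of the pericyte list to 0.563 (without Cd63). The rod list ratio at P6 was 398 with a limit of 3, 311 as a mean of CPM per barcode and 412 with the gene and mitochondrial limits. At P15 it was 651 with a limit of 3 and without the deepest barcode, 499 as a mean, 789 with those limits and 803 against endothelial barcodes. The endothelial list ratio at P6 was 0.0963 as a mean. The Neurod4 ratio was 112 as a mean, 130 with the gene and mitochondrial limits and 588 against endothelial barcodes.

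At P6, genes called higher numbered 1644 at 2-fold, 416 at 8-fold, 1106 and 380 with minimums of 5 and 20 UMIs, and 407 with a limit of 3. Genes called lower numbered 1021 at 2-fold, 378 at 8-fold, 329 with a minimum of 20 and 348 with a limit of 3. At P15, genes called higher numbered 76 and 19 with minimums of 5 and 20, and 21 with a limit of 3. Genes called lower numbered 64 at 2-fold, 71 and 11 with minimums of 5 and 20, and 12 with a limit of 3. Over every gene with a row and by the interval of the ratio, a rule also chosen after seeing the data, 4641 were higher and 2116 lower at P6, and 814 and 275 at P15. The share of P6 barcodes with Snap25 was 23.6% thinned to 500 UMIs and 63.0% thinned to 2000, and at P15 it was 100% thinned to 2000, with 2 barcodes left. Barcodes with Xist and Y-linked UMIs at P6 were 0 of 55 thinned to 1000. The rod share of neural list UMIs at P6 was 44.1% without the gene of most UMIs in each list. Chosen after seeing the data, the Gnat1 ratio between ages was 303 without the deepest barcode of each library and 293 by endothelial share. Lower and higher counts under stricter minimums follow from fewer genes counted. The cause of the other shifts was not tested, and 5 barcodes limit P15.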
